A study of Mus musculus with 4 samples.

Results

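The genes described here encode the proteins of the cytosolic ribosome. They were taken by symbol from the gene tables: every Rpl or Rps symbol followed by a digit, together with Rpsa, Rplp0, Rplp1 and Rplp2, without pseudogene symbols and without the Rps6k kinases. The rule found 86 of 32285 genes, of which 52 carried large-subunit symbols and 33 small-subunit symbols. The remaining member, Rps19bp1, encodes a protein that binds the small-subunit protein Rps19 and is not itself a subunit, so it was counted with neither. No measured value entered the choice.

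Nuclei were isolated from the snap-frozen hippocampus of female mice, aged 8 weeks at the start, and their RNA was counted by unique molecular identifiers (UMIs, 1 for each captured RNA molecule). Wild-type (WT) C57BL/6J mice and App NL-G-F mice, in which the mouse's own App gene carries a humanised amyloid-beta sequence with familial Alzheimer's mutations, were each studied without exercise and with voluntary wheel running, which the protocol sets at 10 weeks. The titles give 4 groups of 1 library each: WT without exercise, WT with exercise, knock-in without exercise and knock-in with exercise. The protocol text of every sample mentions a running wheel, and the groups used here follow the titles. The knock-in allele is driven by the App promoter in every cell, no other transgene or agent is named, and the labels do not say how many mice each library holds. With 1 library per group no comparison had a replicate, so no test was made and no p-value can be given. Each interval printed below is a 95% interval that covers counting error only. These intervals are exact, except those of differences between large- and small-subunit sums, which are normal approximations.

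The large subunit of the ribosome holds the centre that joins amino acids, and the small subunit reads the messenger RNA. Their proteins are made in the cytoplasm, carried into the nucleus and assembled with ribosomal RNA in the nucleolus, and cells keep the subunit proteins in near-equal supply. The messenger RNAs are short, abundant and stable, and most begin with a run of pyrimidines, the terminal oligopyrimidine (TOP) tract, through which mTOR signalling and Larp1 control their translation. A count from isolated nuclei covers transcripts in the nucleus and whatever cytoplasmic RNA stays attached to it or is carried over.

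The members lay on 19 chromosomes and were short genes, with a median length of 3328.5 bp against 12268 bp for all annotated genes in the files (range 374 to 31449 bp). Inside 30 of them lay 58 small nucleolar RNA genes, 60 had pseudogenes named after them (298 in all), and 22 overlapped a counted gene on the opposite strand. The sources used here do not say whether the counting used strand, introns or reads shared with pseudogenes, so single members with such neighbours are less certain than their sums.

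The start of a gene is printed for 6 members whose values are described below, from 100 bases before to 15 bases after the first transcribed base, as given by RefSeq on GRCm38.p6 and read along the gene. Rps26 had the largest ratio between genotypes without exercise in granule neurons and Rps18 the lowest, Rpl39 the lowest ratio with exercise in the knock-in and Rpl15 the highest, and Rpl27a and Rps21 were among the members with the most UMIs. Capitals mark the run of C or T that touches the first transcribed base, where it is at least 5 bases long, and any CGGAAG or its complement CTTCCG, the core bound by ETS-family factors.
Rpl15, chr14:18270972-18271086, minus strand: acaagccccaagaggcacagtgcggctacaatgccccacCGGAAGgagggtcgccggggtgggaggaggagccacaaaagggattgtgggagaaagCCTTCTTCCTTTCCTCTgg
Rpl27a, chr7:109519095-109519209, plus strand: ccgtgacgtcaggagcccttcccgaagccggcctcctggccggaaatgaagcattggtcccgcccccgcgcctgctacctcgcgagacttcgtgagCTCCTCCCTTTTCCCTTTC
Rpl39, chrX:37085208-37085322, minus strand: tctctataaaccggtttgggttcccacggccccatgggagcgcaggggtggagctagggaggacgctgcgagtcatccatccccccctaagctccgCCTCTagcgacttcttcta
Rps18, chr17:33955651-33955765, minus strand: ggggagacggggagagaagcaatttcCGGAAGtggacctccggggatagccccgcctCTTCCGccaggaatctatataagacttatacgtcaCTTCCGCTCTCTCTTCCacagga
Rps21, chr2:180257279-180257393, plus strand: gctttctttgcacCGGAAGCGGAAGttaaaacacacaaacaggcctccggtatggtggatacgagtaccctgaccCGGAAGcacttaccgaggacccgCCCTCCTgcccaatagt
Rps26, chr10:128626492-128626606, minus strand: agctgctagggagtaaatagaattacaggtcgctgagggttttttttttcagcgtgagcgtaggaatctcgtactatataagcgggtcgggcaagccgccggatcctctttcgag
Rpl15, Rpl27a and Rps18 showed long runs, of 17, 20 and 11 bases, and the Rpl27a run reached beyond the printed window. Rps26 had neither feature at its annotated start, and Rps21 had a run of 7 bases and several copies of the CGGAAG core.

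Of the members, 66 had such a start in the RefSeq table. A run of at least 5 pyrimidines touched the start in 21 of them (31.8%), against 11.8% of 27025 genes. Only a run that covers the annotated start base was counted. A run a few bases away was not, as in Rps26, so this is not a count of TOP tracts. CGGAAG on either strand, searched from 100 bases before to 50 bases after the start, was found in 34 members (51.5%) against 13.5% of genes. AAGATGG, a core of YY1 sites, was found in 7 members (10.6%) against 4.05%, and TATAAA in 6 (9.09%) against 8.08%, both searched on both strands in the same stretch. A match is a description of these letters and not a measured binding site.

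Totals were 64158446 to 91676884 UMIs per library over 7203 to 11514 barcodes, and 6508 to 10213 nuclei per library were kept. Pairs of libraries shared 20 to 42 barcodes, at most 0.486% of the smaller one. The lowest barcode held 501, 500, 504 and 1199 UMIs in the order of groups above, which is the order of all values given per library below. Gene counts do not read the mutations in App, so they could not check the genotype labels. Nuclei were clustered with the members left out of the genes that define clusters, and the clusters were named from marker lists. The 7 compared classes were granule neurons of the dentate gyrus, CA1 and CA3 pyramidal neurons, inhibitory neurons, oligodendrocytes, astrocytes and microglia, and every list's own markers were detected in its class in all 4 libraries.

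Over all kept nuclei the members took 1899, 1970, 2844 and 1431 counts in every 1000000 UMIs of the nuclei named (CPM). The knock-in without exercise was highest and the knock-in with exercise lowest. Counted per nucleus instead, the members gave 14.1, 18.0, 16.7 and 10.5 UMIs, and WT with exercise was highest. A nucleus gave 7443, 9123, 5868 and 7366 UMIs of all genes, so the scale of a comparison bears on its size.

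Oligodendrocytes, astrocytes and microglia, as named here, held a larger share of ribosomal protein RNA than the compared neuron classes in every library. In granule neurons, the small densely packed neurons of the dentate gyrus, the members stood at 1963, 1709, 2912 and 1323 CPM. In CA1 neurons they stood at 2175, 1990, 2570 and 1530 CPM, near the granule level. Inhibitory neurons held 1455, 1135, 2311 and 1197 CPM and CA3 neurons 1178, 933, 1674 and 1012 CPM, the lowest of the 7 classes in all 4 libraries. Oligodendrocytes, the myelin-forming cells, held 3395, 3889, 7086 and 1852 CPM. Microglia, the brain's resident macrophages, held 4317, 3638, 7427 and 2316 CPM. Astrocytes held 4281, 8325, 6122 and 6261 CPM. Oligodendrocytes, astrocytes and microglia took the top 3 places in every library, but their order changed from library to library. A deep cluster with microglial markers was left out by a rule set after seeing the data. With it in the class, microglia held 1799 CPM in WT without and 1051 in WT with exercise, below granule and CA1 neurons there. Oligodendrocyte precursors, not a compared class, held 1839 CPM in WT with exercise, below CA1 neurons. The counting intervals were narrow beside these gaps: the oligodendrocyte level in WT without exercise had an interval of 3327 to 3464, and the widest, in the 28 microglia of WT with exercise, ran from 3151 to 4179 on 200 UMIs.

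Per nucleus the order was different. CA1 neurons gave 19.8, 21.04, 19.3 and 14.6 ribosomal protein UMIs and CA3 neurons 14.3, 13.6, 17.6 and 14.4. The median nucleus ordered these 2 classes the other way, with 12, 11, 14 and 11 UMIs in CA1 and 14, 13, 17 and 14 in CA3 neurons. Oligodendrocytes gave a mean of 6.40, 7.42, 10.5 and 5.45, the fewest of the 7 classes in 3 of the 4 libraries. The oligodendrocyte share was thus large within small totals: an oligodendrocyte gave 1886, 1909, 1476 and 2943 UMIs of all genes, and a granule neuron 6711, 7288, 4902 and 7264. Microglia gave 7.91, 7.14, 12.1 and 7.85 ribosomal protein UMIs. Astrocytes gave 11.5, 20.5, 11.98 and 23.2, the second of the 7 classes in WT with exercise and the first in the knock-in with exercise.

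**Figure D1:**
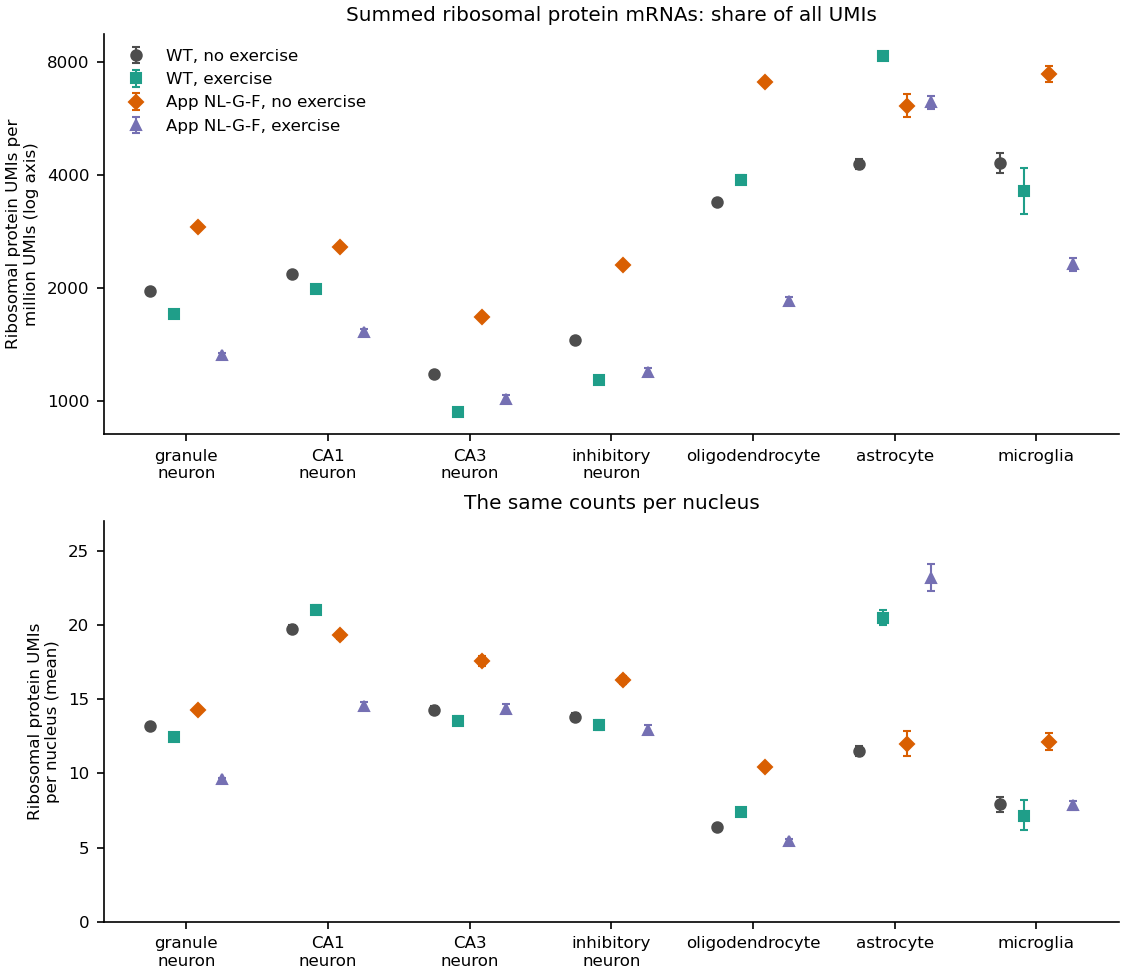
Ribosomal protein UMIs in 7 cell classes and 4 libraries; the upper panel gives CPM of the class on a log axis and the lower panel UMIs per nucleus, with exact 95% Poisson intervals as bars. Glia lie above neurons in the upper panel in all 4 libraries, and CA3 neurons, lowest there, lie well above oligodendrocytes in the lower panel.

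Member by member, 54 genes (32 large, 22 small) had at least 50 UMIs in every class. All 54 were higher in glia than in neurons in all 4 libraries, where 66% of the 5317 genes with that many UMIs were higher. Microglia had the fewest UMIs of the compared classes, so the minimum was hardest to pass there. It thus favoured genes with a large share in microglia, among the members and the 5317 genes alike, and the count of 54 is partly set by it. The median ratio of glia to neurons, on the log2 CPM scale, was 1.57 for large and 1.66 for small subunit genes (range 0.45 to 2.23). The same median was 0.30 over all 5317 genes and 0.89 over the 395 genes of 10 kb or less, of which 86.6% were higher in glia. Astrocytes were the highest class for 47 of the 54 genes and microglia for 7, and CA3 neurons were lowest for 51 and inhibitory neurons for Rpl5, Rps14 and Rpl26.

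The members differed in how far they ranged. Rplp1, an acidic stalk protein of the large subunit that recruits elongation factors, ranged most, from 17.4 CPM in CA3 neurons to 213.5 in astrocytes (means of 4 libraries), a difference of 3.62 on the log2 scale. Rps29, a zinc-binding small-subunit protein, ranged by 3.57, and Rpsa, a small-subunit protein also known as the laminin receptor, by 3.24. Rps13, Rpl15 and Rpl6 ranged least, by 1.23, 1.25 and 1.29. Rpl15 stood at 59.5 CPM in granule neurons and 66.8 in astrocytes, while Rps29 stood at 24.1 and 131.

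In astrocytes of both libraries with exercise the ribosomal protein share was highest in the deepest nuclei. The nuclei of a class and library were ordered by UMI count and divided into 4 equal depth groups. In WT with exercise the deepest group of astrocytes held 14409 ribosomal protein CPM, while the other 3 groups held 3933 to 4840. In the knock-in with exercise the deepest group held 9747 and the others 2082 to 4353. Mitochondrially encoded RNA moved with them, at 6661 and 6713 CPM in those 2 groups and 666 to 1525 and 184 to 1953 in the others; its part in the astrocyte level was not tested. Without exercise the deepest astrocytes did not stand apart in this way. From shallowest to deepest, the groups held 4487, 3353, 3744 and 4997 CPM in WT without exercise. In the knock-in without exercise they held 6997, 5730, 5472 and 6365 CPM. The median astrocyte gave 7, 7, 10.5 and 6 ribosomal protein UMIs. In granule neurons and oligodendrocytes the deepest group did not stand apart in this way, and the share was highest in the shallowest group of granule neurons in every library. In CA1 neurons the deepest group lay above the next deepest in both WT libraries. It held 2767 CPM against 1395 without exercise and 2589 against 1015 with exercise. In the knock-in it held 2663 against 2118 without exercise and 1088 against 1139 with exercise. The shallowest CA1 groups held 2722, 3428, 3303 and 4678 CPM. Mitochondrially encoded RNA was higher in the deepest than in the next deepest CA1 group in every library.

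**Figure D2:**
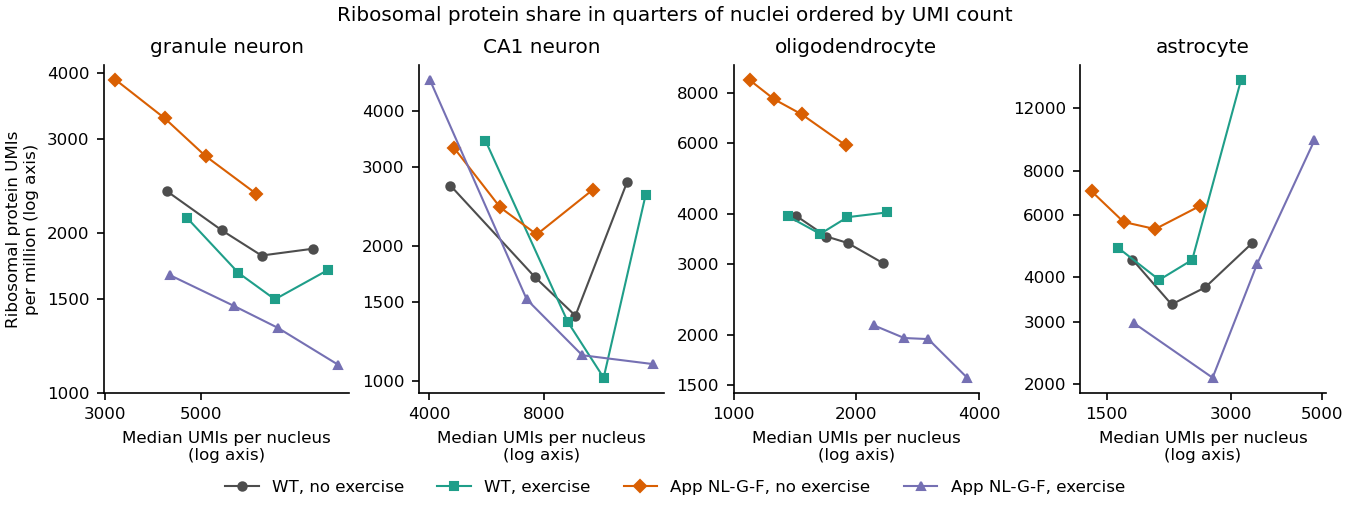
Ribosomal protein CPM against the median UMI count of a nucleus, for 4 equal groups of nuclei ordered by UMI count, in 4 cell classes and 4 libraries. The deepest astrocyte group of WT with exercise stands at 14409 CPM, and in granule neurons the knock-in without exercise lies above the other libraries in every depth group. The groups were set within each library and not matched in depth. The shallowest granule group had a median of 4171, 4658, 3163 and 4247 UMIs in the order of libraries.

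Large-subunit genes together gave more UMIs than small-subunit genes in every class and library. The large sum runs over 52 symbols and the small sum over 33, so a ratio above 1 does not show more UMIs per gene. The ratio of their sums was 1.65, 1.60, 1.65 and 1.76 over all nuclei. In granule neurons it was 1.63 (1.60 to 1.66), 1.63 (1.59 to 1.67), 1.64 (1.60 to 1.67) and 1.79 (1.75 to 1.84), so the first 3 libraries overlapped and the knock-in with exercise stood above them. In inhibitory neurons the ratio was 1.73, 1.75, 1.67 and 1.93, where the last had an interval of 1.84 to 2.03. In CA1 neurons it was 1.65, 1.58, 1.66 and 1.68, and in CA3 neurons 1.702, 1.68, 1.73 and 1.80.

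The glial ratios were more spread. Oligodendrocytes stood at 1.49, 1.49, 1.58 and 1.72, below each of the 4 neuronal classes in the first 3 libraries. Astrocytes stood at 1.58, 1.42, 1.69 and 1.55, and microglia at 1.42, 1.82, 1.67 and 1.67, where the second value had an interval of 1.35 to 2.46. The knock-in with exercise thus had the highest ratio of the 4 libraries in granule, CA1, CA3 and inhibitory neurons and in oligodendrocytes, and not in astrocytes or microglia, although its intervals in CA1 (1.62 to 1.73) and CA3 neurons (1.72 to 1.89) overlapped those of other libraries. Whether this gap would exceed the spread between mice was not tested. In granule neurons Rpl15, a large-subunit gene described below, was highest in the knock-in with exercise, where most members were lowest. Its part in the ratio was not tested.

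**Figure D3:**
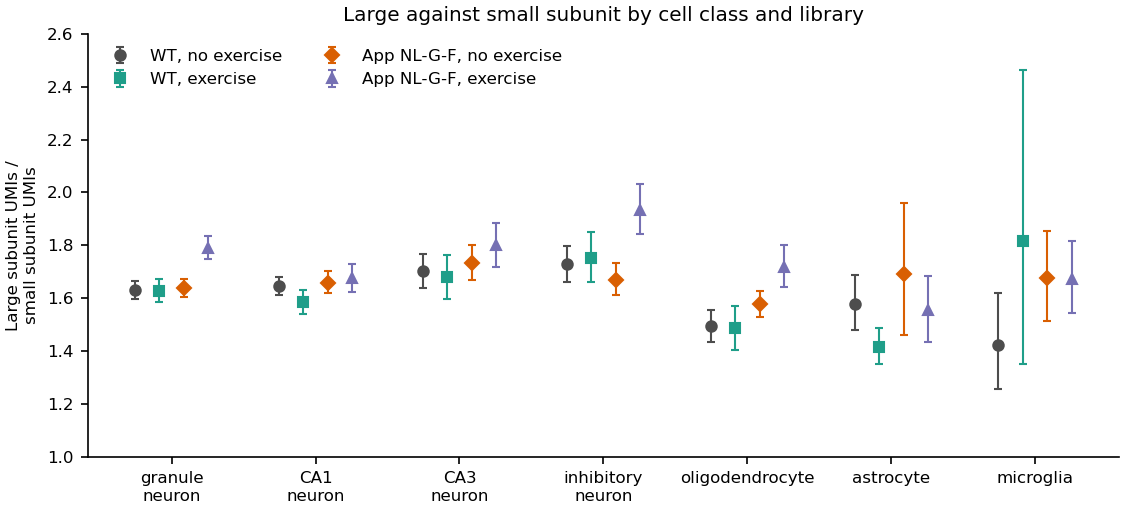
Ratio of summed large-subunit to summed small-subunit UMIs by cell class and library, with exact 95% intervals of the ratio as bars. The sums run over 52 large and 33 small symbols. The ratio lies above 1 throughout, and in granule and inhibitory neurons the knock-in with exercise lies above the other 3 libraries.

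The rest of the account compares libraries, as log2 ratios of CPM within a class over members with at least 50 UMIs there. In granule neurons 82 members passed this minimum (49 large, 32 small and Rps19bp1). Rpl3l, Rpl10l, Rpl39l and Rps27rt did not pass. A member was counted as higher or lower when its ratio passed 1.5-fold, and the same share of all genes with 50 UMIs is given for comparison.

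Without exercise, ribosomal protein RNA took a larger share of granule neuron UMIs in the knock-in library than in the WT library. The median ratio was 0.57 on the log2 scale, with 79 of 82 members above 0, against 48% of all genes. Of the members, 39 were at least 1.5-fold higher, against 15.2% of all genes, and none was 1.5-fold lower, against 8.28%. Large and small subunit genes moved alike, with medians of 0.56 and 0.55 and 24 of 49 and 15 of 32 genes past 1.5-fold; the difference between their sums was 0.01 (-0.03 to 0.05). The median over all genes was -0.02 and that over genes of 10 kb or less 0.28. Per nucleus, the members' sum differed by 0.12 only, from 13.2 to 14.3 UMIs.

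Other measures differed between the libraries too. Malat1, a nuclear long non-coding RNA, took 3.19%, 6.05%, 9.17% and 2.77% of granule UMIs. All 5 of 5 red blood cell markers (haemoglobin genes and Alas2) were counted in granule neurons of every library and summed to 4.84, 7.12, 17.6 and 3.1004 CPM. Both were highest in the knock-in without exercise and lowest in the knock-in with exercise, as the members were. Between the WT libraries both were higher with exercise, while the members were lower. Their part in the result was not tested. Mitochondrially encoded RNA, at 301, 179, 231 and 100 CPM, was highest in WT without exercise and lowest in the knock-in with exercise.

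With exercise, the knock-in library held far less than the knock-in library without exercise. The median ratio in granule neurons was -1.19, with 70 of 82 members at least 1.5-fold lower, against 21.4% of all genes, and none 1.5-fold higher, against 22.7%. Of these, 40 were large and 30 small subunit genes, and the subunit medians were -1.24 and -1.19. The sum of large-subunit genes was lower by less than that of small-subunit genes, by a difference of 0.13 (0.08 to 0.18). The medians went the other way, and a sum gives more weight to members with many UMIs. Rpl15, described below, is such a member and was not lower here. Its part in this difference was not tested. All genes had a median of 0.07 and genes of 10 kb or less of -0.41. Per nucleus the members' sum differed by -0.57 on the log2 scale, from 14.3 to 9.61 UMIs.

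Exercise in WT went with a smaller difference. The median granule ratio was -0.21, with 8 of 82 members at least 1.5-fold lower, against 8.05% of all genes, which is near the background. Of the 8, 7 were large-subunit genes and the other was Rps19bp1, and only Rps26 was 1.5-fold higher, where 3.93% of all genes were. All genes had a median of -0.12 and genes of 10 kb or less of -0.19. With exercise in both genotypes, the knock-in library was lower than the WT library by a median of -0.44, with 31 members at least 1.5-fold lower, against 10.4% of all genes, and 2 higher, against 22.4%. Here all genes had a median of 0.19, and the members' sum per nucleus differed by -0.37. Each of these 4 comparisons shares a library with 2 of the others, so they are not independent of each other.

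**Figure D4:**
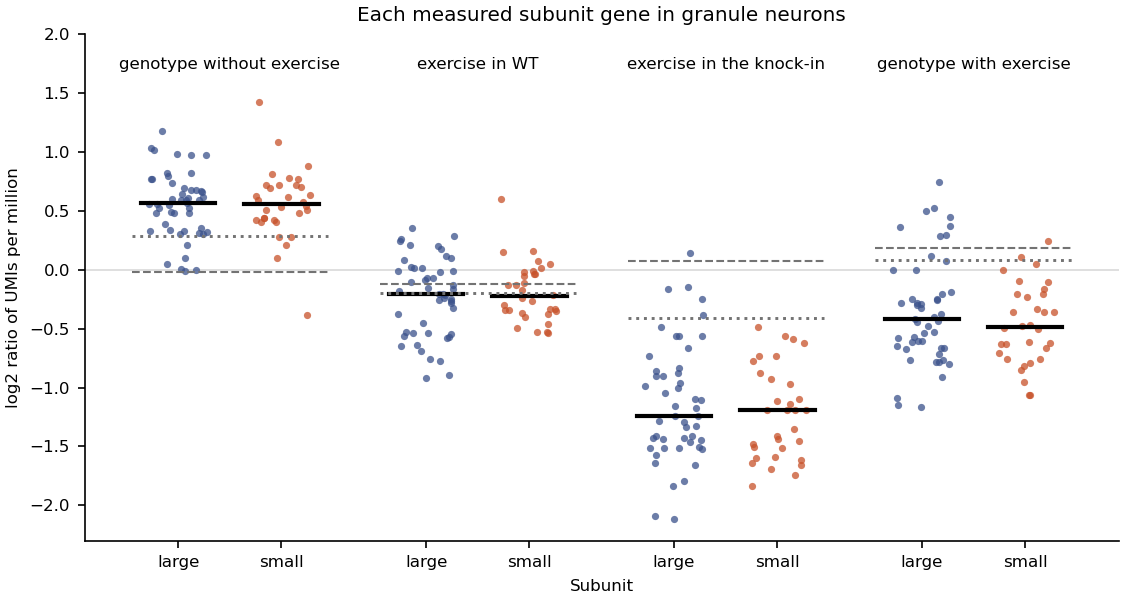
Log2 ratio of CPM in granule neurons for every measured subunit gene (points), by comparison and subunit, with the median as a black bar, the median of all genes as a dashed line and that of genes of 10 kb or less as a dotted line. The ranges of large and small subunit genes overlap in each comparison, with medians of 0.56 and 0.55 between genotypes without exercise and -1.24 and -1.19 with exercise in the knock-in.

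The granule class was not filled by the same clusters in each library. The largest share of granule nuclei lay in cluster 2 for WT without exercise (41.8%), cluster 1 for WT with exercise (51.8%), cluster 3 for the knock-in without exercise (77.9%) and cluster 0 for the knock-in with exercise (96.2%). Clusters 1 and 2 held nuclei of all 4 libraries. In cluster 1 the members stood at 1795, 1483, 2277 and 1382 CPM, and in cluster 2 at 1677, 1489, 2461 and 1200 CPM. These clusters held few of the knock-in granule nuclei. Without exercise they held 176 and 369 of 2556, and with exercise 62 and 33 of 2753, so they do not stand for the class in those libraries. Further single clusters were read where they held at least 25 nuclei of each library. They had to be named as a compared class, oligodendrocyte precursors, or subicular, cortical excitatory or CA2 neurons. No oligodendrocyte cluster passed, and Cajal-Retzius and unnamed clusters were not included. Across the 16 clusters that passed, the sum was higher in the knock-in than in WT without exercise in 16 of 16 (0.34 to 0.92, median 0.58). It was higher with exercise in the knock-in in 2 of 16 (-1.68 to 0.37, median -0.93) and with exercise in WT in 2 of 16 (-0.49 to 0.96, median -0.30). Between genotypes with exercise it was higher in the knock-in in 8 of 16 (-0.65 to 0.73, median 0.0088). That ratio was -0.10 (-0.22 to 0.01) in cluster 1, an interval that holds 0, and -0.31 (-0.46 to -0.17) in cluster 2. Clusters of 1 library are not independent samples. Some held few nuclei of a library: CA1 clusters 5 and 6 held 25 and 35 of the 1186 CA1 nuclei of the knock-in with exercise.

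The knock-in without exercise was the highest library in the other neurons too. The knock-in with exercise was lowest in CA1 neurons, and WT with exercise in CA3 and inhibitory neurons. In CA1 neurons the median ratio between genotypes without exercise was 0.21, with 8 of 82 members at least 1.5-fold higher, against 11.7% of all genes. In CA3 neurons it was 0.54, with 34 members higher, against 12%. In inhibitory neurons it was 0.71, with 50 of 81 higher, against 14.1%. The CA1 count thus lay near the background, and the CA3 and inhibitory counts above it. With exercise in the knock-in, 61 of 82 members were 1.5-fold lower in CA1 neurons (median -0.80), against 19.1% of all genes. The same count was 54 of 82 in CA3 neurons (median -0.77), against 17.1%. It was 63 of 81 in inhibitory neurons (median -1.05), against 18.3%. In inhibitory neurons the large-subunit sum was lower by less than the small-subunit sum, by 0.21 (0.12 to 0.30), while in CA1 neurons the 2 sums differed by 0.01 (-0.04 to 0.07). For the genotypes with exercise the median ratio was -0.47 in CA1 neurons, while CA3 neurons had 0.13 and inhibitory neurons 0.02.

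The same comparisons were also made per nucleus. With exercise in the knock-in the members' sum differed by -0.41 in CA1 neurons, by -0.29 in CA3 neurons and by -0.33 in inhibitory neurons. Between genotypes without exercise it differed by -0.03, 0.30 and 0.24 in the same order, so in CA1 neurons the sign turned. The sums of the genotypes with exercise differed by -0.53, 0.08 and -0.04.

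The small CA1 ratio turned on a single cluster. Cluster 26, which was named CA1 from its markers but led by Fth1, Atp5e, Rplp1 and other messenger RNAs of the cytoplasm, held 131, 69, 32 and 85 nuclei with 10087, 14130, 18072 and 23422 ribosomal protein CPM. Its mitochondrially encoded RNA stood at 9036, 8156, 11752 and 18113 CPM. Without it CA1 neurons held 1315, 1045, 1995 and 1093 CPM, and the median ratio between genotypes without exercise was 0.63. The median with exercise in the knock-in was then -0.97, and the one between genotypes with exercise changed from -0.47 to 0.01. These values were chosen after the clusters had been seen.

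Oligodendrocytes had the largest medians of the 7 classes in the comparisons between genotypes and with exercise in the knock-in, but not with exercise in WT (0.19). Between genotypes without exercise the median ratio was 1.05, with 78 of 82 members at least 1.5-fold higher, against 15.5% of all genes. The medians were 1.08 for large and 1.02 for small subunit genes, and genes of 10 kb or less stood at 0.49. With exercise in the knock-in, all 82 measured members were at least 1.5-fold lower, against 24.6% of all genes, with a median of -1.97 beside -0.90 for genes of 10 kb or less. Between genotypes with exercise 69 of 82 were lower, against 15%, with a median of -1.13. Per nucleus the sum differed by 0.71 and -0.94 in the first 2 of these comparisons, so the direction held on both scales.

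In oligodendrocytes Malat1 and the red blood cell markers had the members' order of libraries. Malat1 took 6.18%, 9.46%, 16.1% and 4.21% of UMIs, and the 5 red blood cell markers summed to 5.77, 31.0, 57.1 and 4.24 CPM, with none at 0. The 6 granule neuron markers summed to 885, 913, 571 and 707 CPM in this class, against 1755 to 2378 in granule neurons, and none was at 0. Granule markers were thus lowest where the members were highest. The part of carried-over RNA in the result was not tested, and the oligodendrocytes of the 2 knock-in libraries lay mainly in clusters of their own (92.4% in cluster 10 and 98.4% in cluster 9, against 91.8% and 91.9% of WT nuclei in cluster 4), so library and cell state cannot be told apart.

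Microglia followed the neurons in direction. Between genotypes without exercise the median of the 54 measured members was 0.70, with 38 at least 1.5-fold higher, against 17.3% of all genes, and with exercise in the knock-in it was -1.71, with 53 lower, against 20.1%. Exercise in WT gave -0.26, but 4 members had no UMI in 1 of the libraries, and with those at the floor of 3 UMIs the median was -0.13. A deep cluster with microglial markers, cluster 32, was kept out of the class and held 26, 85, 55 and 8 nuclei with 1400, 1012, 2339 and 1194 CPM. With it in the class the medians were 1.31 between genotypes without exercise, above that of oligodendrocytes, -0.92 with exercise in WT and -0.97 with exercise in the knock-in. The median between genotypes with exercise was then 1.23, where the class alone gave -0.57. Per nucleus the class's sum differed by 0.62 between genotypes without exercise and -0.63 with exercise in the knock-in.

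Astrocytes differed from the other classes in these libraries. Between genotypes without exercise the median was 0.52, with 36 of 80 members at least 1.5-fold higher, against 17.2% of all genes. Exercise in WT went with a median of 0.88, with 58 of 80 members 1.5-fold higher, against 5.94%. Exercise in the knock-in went with a median of 0.09, with 16 of 80 members higher, against 30.9% of all genes, and 8 lower, against 22.5%, so fewer members than genes at large passed in either direction. Per nucleus the sum differed by 0.06 between genotypes without exercise, 0.83 with exercise in WT and 0.95 with exercise in the knock-in. With only nuclei under 1% mitochondrial UMIs the medians with exercise were 0.03 in WT and -1.49 in the knock-in. The part of the deepest astrocyte groups described above in these medians was not tested. The class held 339, 337, 66 and 112 nuclei, and its mitochondrially encoded RNA stood at 2130, 3316, 720 and 3640 CPM; the part of that RNA was not tested.

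Single members are described next by role, in granule neurons, where counts were highest. Rpl6 is a large-subunit protein on the solvent side and had the most UMIs of all members, at 67.9, 82.6, 138 and 52.2 CPM. It was 1.03 (0.93 to 1.13) higher on the log2 scale in the knock-in without exercise and higher in 7 of 7 classes (0.77 to 1.41). Rpl39, a small protein that lines the exit tunnel for the growing chain, stood at 7.58, 8.74, 17.1 and 3.95 CPM. Its ratios were 1.17 (0.87 to 1.48) between genotypes without exercise and -2.11 (-2.50 to -1.73) with exercise in the knock-in, the lowest of all large-subunit genes there. Rpl36a, which lies near the site where the emptied transfer RNA leaves, stood at 6.65, 6.70, 13.4 and 3.15 CPM, with -2.09 (-2.53 to -1.66) with exercise in the knock-in. Both are X-linked and among the members with the fewest UMIs of those named, so their intervals are wide.

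A few large-subunit genes did not follow the rest. Rpl15, a core protein of the large subunit, stood at 59.3, 49.8, 61.3 and 67.7 CPM and was highest where most members were lowest. Its ratio with exercise in the knock-in was 0.14 (0.01 to 0.27), and between genotypes with exercise it was 0.44 (0.31 to 0.58). In oligodendrocytes its ratio with exercise in the knock-in was -1.90, near the median of that class. It overlaps Nkiras1 on the opposite strand, and without known strand the reads of the pair cannot be told apart. Rpl13a, known for a further role in silencing inflammatory messages, stood at 24.9, 13.4, 24.9 and 22.5 CPM. Its ratio was -0.89 (-1.14 to -0.65) with exercise in WT and 0.75 (0.497 to 0.997) between genotypes with exercise. It stood above the class median in 7 of 7 classes in the latter comparison.

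Rpl4, whose long extension reaches the exit tunnel, stood at 20.2, 13.9, 20.03 and 17.9 CPM, and Rpl12, a protein at the base of the stalk, at 23.7, 13.8, 23.6 and 16.9 CPM. Their ratios between genotypes without exercise were -0.01 (-0.24 to 0.22) and -0.01 (-0.22 to 0.21), with intervals that hold 0 and lie below the members' median. Rpl7, at 18.1, 9.59, 27.3 and 7.65 CPM, had the lowest ratio of the large-subunit genes with exercise in WT, -0.92 (-1.21 to -0.63). Rpl10a, at 28.4, 16.8, 35.7 and 24.1 CPM, was 0.52 (0.30 to 0.75) higher between genotypes with exercise, and Rpl35a, at 20.8, 21.01, 32.5 and 9.35 CPM, had a ratio of -1.17 (-1.44 to -0.90). The 2 thus went opposite ways in that comparison. Rpl12, Rpl10a and Rpl35a overlap Lrsam1, Gm49889 and Gm17106 on the opposite strand, with the same limit as for Rpl15.

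Among small-subunit genes, Rps26, which contacts messenger RNA near the exit channel, had the largest ratio between genotypes without exercise. It stood at 15.4, 23.3, 41.3 and 13.8 CPM, a ratio of 1.42 (1.22 to 1.63), and was higher in 7 of 7 classes (0.19 to 2.05). It was also the only member at least 1.5-fold higher with exercise in WT, at 0.60 (0.37 to 0.82). Rps29 stood at 19.6, 20.7, 41.5 and 14.7 CPM, with a ratio of 1.08 (0.89 to 1.27) between genotypes without exercise and higher values in 7 of 7 classes (0.69 to 1.84).

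Rps18, a protein of the small subunit's head, went the other way. It stood at 30.3, 24.5, 23.1 and 13.95 CPM in granule neurons, and its ratio between genotypes without exercise was -0.39 (-0.59 to -0.18). It was lower in the 6 classes where it passed the UMI minimum (-0.77 to -0.07). In microglia, where it did not pass, it had 16 UMIs against 6 and a ratio of 1.51 (0.08 to 3.15). It overlaps Vps52 on the opposite strand, with the same limit as for Rpl15. Rps2, at the entry channel of messenger RNA, stood at 49.7, 39.5, 53.3 and 23.4 CPM and had a ratio of 0.10 (-0.04 to 0.24). It overlaps Snhg9 on the opposite strand.

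With exercise in the knock-in the lowest small-subunit genes were Rps3 and Rps4x. Rps3, a protein of the entry channel also known in DNA repair, stood at 17.5, 13.9, 23.7 and 6.65 CPM, a ratio of -1.83 (-2.14 to -1.53). Rps4x, which is X-linked, stood at 14.96, 11.4, 24.6 and 7.35 CPM, a ratio of -1.74 (-2.04 to -1.45). Rps15a and Rps19, the latter the gene most often mutated in Diamond-Blackfan anaemia, had the ratios nearest to 0 of the small-subunit genes. Rps15a stood at 23.2, 21.4, 26.8 and 18.2 CPM, with -0.56 (-0.78 to -0.34), and Rps19 at 20.4, 16.01, 28.6 and 18.95 CPM, with -0.59 (-0.80 to -0.38). Even these intervals lay below 0.

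Of the remaining small-subunit genes that the rule names, Rpsa stood at 35.3, 24.3, 47.8 and 21.0025 CPM and Rps27, a zinc-finger protein, at 21.6, 14.9, 35.4 and 16.1 CPM. Their ratios with exercise in WT were the lowest of the small-subunit genes, -0.54 (-0.73 to -0.35) and -0.53 (-0.77 to -0.29). Rps20 stood at 20.2, 22.6, 30.1 and 10.8 CPM and had a ratio of -1.06 (-1.32 to -0.81) between genotypes with exercise. In all 3 genes the knock-in without exercise was the highest library.

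**Figure D5:**
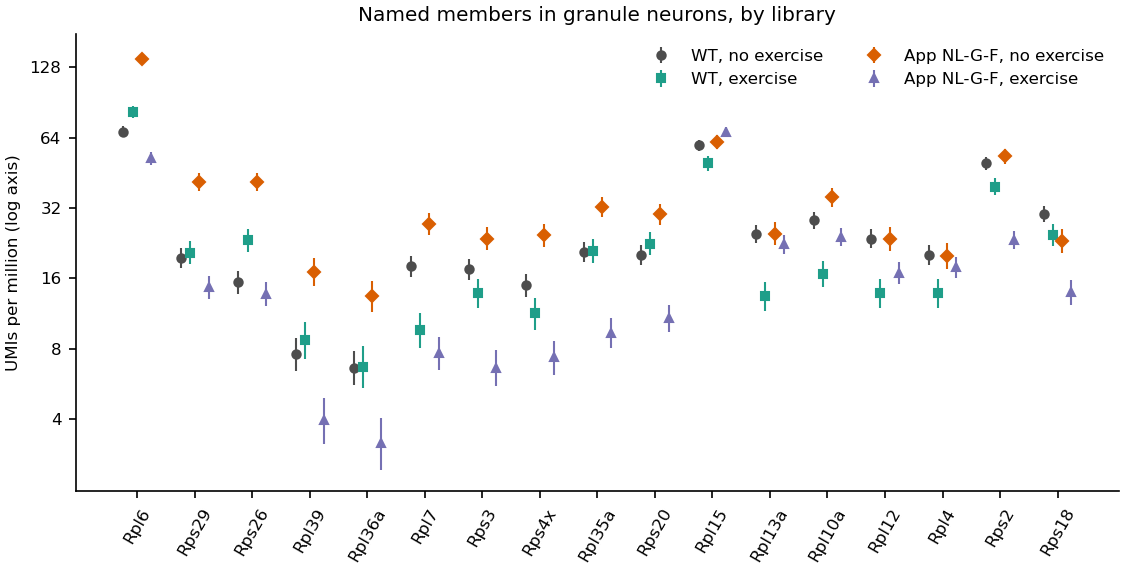
CPM in granule neurons of 17 named members in each of the 4 libraries, with exact 95% Poisson intervals as bars. Most members are highest in the knock-in without exercise and lowest in the knock-in with exercise, while Rps18 is highest in WT without exercise and Rpl15 in the knock-in with exercise.

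Over all nuclei the members with the most UMIs were, among large-subunit genes, Rpl6 (mean of the 4 libraries 74.99 CPM), Rpl13 (57.5), Rpl15 (45.2), Rpl27a (43.1) and Rplp1 (42.0). Small-subunit genes among those with the most UMIs were Rps13 (39.4), Rps2 (38.2), Rps21 (37.7) and Rpsa (33.5). These are counts of captured molecules without a correction for gene length, so they give no order of expression between genes. Rpl13 stood at 54.8, 56.5, 80.1 and 38.6 CPM and followed the members' order of libraries.

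Some members are second copies of another subunit gene. Rpl3l, a copy of Rpl3 known from heart and skeletal muscle, stood at 0.54, 0.49, 0.44 and 0.76 CPM over all nuclei beside 40.7, 27.5, 49.999 and 30.4 CPM of Rpl3. Rpl10l, known from the testis, had 0, 0, 1 and 0 UMIs and Rpl39l, also known from the testis, 0, 2, 1 and 0, counts at or under the floor of 3 UMIs. Rpl7l1, a factor of ribosome assembly, was near its partner, at 13.01, 16.9, 18.9 and 11.1 CPM beside 15.9, 13.5, 25.2 and 8.89 of Rpl7. Rpl22l1 stood at 16.4, 15.6, 28.2 and 11.7 CPM beside 17.6, 18.8, 21.2 and 16.3 of Rpl22. In granule neurons Rpl22l1 was 0.69 (0.48 to 0.90) higher in the knock-in without exercise and Rpl22 0.30 (0.07 to 0.52). Rpl36al stood at 11.4, 11.5, 15.7 and 6.85 CPM beside 6.79, 9.48, 13.005 and 4.97 of Rpl36a. Rps27l, a target of p53, stood at 2.45, 2.75, 3.75 and 1.83 CPM and the retrogene Rps27rt at 0.76, 0.54, 0.64 and 0.73, beside 21.4, 20.8, 36.1 and 17.2 of Rps27. The copies expressed in muscle or testis were thus at or near 0, and the others were counted at levels from a small part of their partner's to above it. Rpl3, Rpl22l1 and Rps27rt overlap Syngr1, Gm33051 and Osbpl10 on the opposite strand, with the same limit as for Rpl15. Rps19bp1 stood at 3.97, 2.54, 4.76 and 4.33 CPM, and in granule neurons it was 1.42 (0.85 to 2.03) higher between genotypes with exercise, opposite to the subunit genes.

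Features of the members that the rule did not use were compared by medians in granule neurons. Between genotypes without exercise the median ratio was 0.56 for the 20 measured members with a pyrimidine run at the start and 0.56 for the 42 without one. It was 0.59 for the 33 with CGGAAG and 0.55 for the 29 without. It was 0.51 for the 30 hosts of small nucleolar RNA genes and 0.59 for the 52 other members. With exercise in the knock-in the same pairs were -1.05 and -1.19, -1.19 and -1.10, and -1.26 and -1.16. With exercise in WT they were -0.12 and -0.24, -0.13 and -0.28, and -0.25 and -0.21. Between genotypes with exercise they were -0.39 and -0.48, -0.61 and -0.38, and -0.58 and -0.37. The widest of these gaps were those of CGGAAG and of snoRNA hosts between genotypes with exercise, and none was tested. Members counted without a pyrimidine run can hold one a few bases from the annotated start, so that split depends on the annotation.

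Other genes of translation were compared in granule neurons by lists, with no test. The counts at 1.5-fold below stand beside these shares of all genes. Between genotypes without exercise 15.2% were higher and 8.28% lower. With exercise in the knock-in 22.7% were higher and 21.4% lower. Ribosomal proteins with other symbols followed the members in part. Fau, whose product is cleaved to a small-subunit protein, stood at 29.7, 32.6, 55.9 and 17.3 CPM. Rack1, a signalling scaffold on the small subunit, stood at 22.8, 14.4, 23.3 and 22.1 CPM, with ratios of 0.03 (-0.18 to 0.25) between genotypes without exercise and -0.08 (-0.29 to 0.14) with exercise in the knock-in. Rack1 thus lay with Rpl13a rather than with the median member.

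The factors of translation stayed nearer to all genes. Of 39 initiation factors, 5 were at least 1.5-fold higher and 1 lower between genotypes without exercise (median -0.03), and 3 were higher and 7 lower with exercise in the knock-in (median -0.02). Of 10 elongation and release factors, 1 was higher and none lower in the first comparison (median -0.06), and none higher and 3 lower in the second (median -0.14). Eef1a1, the main carrier of transfer RNA to the ribosome, stood at 78.1, 60.1, 121 and 45.8 CPM and followed the members. Eef2, which moves the ribosome along, stood at 35.2, 24.9, 26.4 and 37.2 CPM and was higher with exercise in the knock-in, at 0.49 (0.30 to 0.68).

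Other messenger RNAs with a TOP tract were mixed. Of 20, 4 were higher and none lower between genotypes without exercise (median 0.04), and 1 was higher and 7 lower with exercise in the knock-in (median -0.25). This list shares Fau, Rack1 and several factors with the lists above. Tpt1, at 24.2, 21.2, 37.2 and 15.95 CPM, followed the members, while Pabpc1, the poly(A)-binding protein, stood at 51.1, 44.4, 49.6 and 51.1 CPM. Hnrnpa1, a nuclear RNA-binding protein, stood at 27.4, 18.8, 27.3 and 41.0 CPM and was higher with exercise in the knock-in.

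Genes of ribosome assembly and of its control did not move with the subunit genes. Of all genes, 15.2% were higher and 8.28% lower between genotypes without exercise, and 22.7% and 21.4% with exercise in the knock-in. Of 36 ribosome biogenesis genes, 2 were higher and 3 lower between genotypes without exercise (median -0.08), and 8 were higher and 3 lower with exercise in the knock-in (median 0.10). Of 17 measured genes of mTOR signalling and its targets in translation, none was higher and 2 were lower in the first comparison (median -0.17), and 7 were higher and none lower in the second (median 0.43). Mtor stood at 60.4 CPM in the knock-in without exercise and 100.2 with exercise, a ratio of 0.73 (0.61 to 0.85), and Larp1 at 118.1 and 111.0. The 78 mitochondrial ribosomal protein genes, also mostly short, had 23 higher and none lower in the first comparison (median 0.33). In the second, none was higher and 37 were lower (median -0.53). The direction was that of the members, but both medians lay nearer to those of all genes of 10 kb or less, given above, than to the members'.

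Across the 28 combinations of class and library, the genes outside the members whose log2 CPM was most like the members' sum, of 5263 with at least 50 UMIs in every class, were Tpt1 (Pearson r 0.978), Fau (0.975) and Naca (0.974), a subunit of the nascent-chain complex on the ribosome. Tpt1 ranged from 9.76 to 134 CPM over these points, and Fau from 14.5 to 206. The points share libraries, depth and cell classes, so these values describe likeness only.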

How the data were processed

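The authors deposited raw UMI counts per gene and barcode for 4 single-nucleus libraries, 1 per group. The file header names Cell Ranger 5.0.1, whereas version 3.1.0 and the mm10 build stand in the submitters' processing notes; intron and strand settings are not given in the sources used here. No normalisation or pooling is recorded per the file headers. The tables hold filtered barcodes, so free RNA could not be read from empty droplets.

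From these counts, a nucleus was kept if it had 500 genes or more, 1000 UMIs or more and a mitochondrial share under 5%, using Python 3.11.15 and scanpy 1.11.5. Doublets were scored against 2 simulated pairs per nucleus with scikit-learn 1.9.0, and the top 0.8% per 1000 nuclei were left out (5.51% to 8.98% of a library; 38.9% to 59.7% of simulated pairs lay above the limit). Counts were scaled to 10000 per nucleus and logged, and 2000 variable genes without the members, 30 components and 15 neighbours gave 41 Leiden clusters (leidenalg 0.10.2, resolution 1.0). A cluster was named from at least 3 of its class's markers, among 24 classes; 13 clusters stayed unnamed. One naming rule, that a cluster over 4 times as deep as the largest of its class stays unnamed, was set after seeing the data.

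For each class and library the UMIs of its nuclei were summed, and every member and gene was compared as CPM. Intervals are exact Poisson for sums and exact conditional binomial for ratios, computed with SciPy 1.17.1 and NumPy 2.4.6. Those of differences between large- and small-subunit sums are normal approximations from the counts. Factors for the scaling alternatives came from edgeR 4.0.16 (TMM) and DESeq2 1.42.0 (median of ratios) in R 4.3.3, and neither tool was used for a test. The summing and interval code was checked on simulated data. Gene positions and lengths came from GENCODE M21, which matched 32235 of the 32285 genes.

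The text names the 5 members of each subunit with the highest mean CPM and, in granule neurons, the 2 highest and 2 lowest ratios of each subunit per comparison among members with at least 100 UMIs over both libraries. It also names second copies with their partners, the 3 widest and 3 narrowest ranges over classes, members that are no subunit, and the 3 most alike genes. Of the genes so chosen or listed, 2 are not reported here. Members and lists were chosen with earlier results of these data known, so nothing here is independent support for those results. The alternatives were other filters on nuclei and members, doublets kept, other clusterings, thinning to 1500 UMIs, 4 other scalings, and, added after seeing the data, clusters led by cytosolic mRNAs left out and deep clusters kept in their class.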

Additional observations from a re-analysis of the deposited data

Results flagged for a closer look

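The difference between genotypes in the summed members changed direction with exercise in 5 classes, higher in the knock-in library without exercise and lower with it. No group has a replicate, so the difference between these log2 ratios was not tested. In granule neurons the ratio was 0.57 without and -0.37 with exercise, a difference of -0.94, and in CA1 neurons 0.24 and -0.38, a difference of -0.62. In oligodendrocytes it was 1.06 and -1.07, a difference of -2.13. In astrocytes it was 0.52 and -0.41, a difference of -0.93, and in microglia 0.78 and -0.65, a difference of -1.43. In CA3 and inhibitory neurons the ratio was above 0 with exercise too, at 0.12 and 0.08. The direction with exercise held under every alternative in granule neurons and oligodendrocytes only: the median changed sign in 4 of 16 alternatives in CA1 neurons, 2 of 15 in CA3 neurons, 6 of 15 in inhibitory neurons, 2 of 15 in astrocytes and 5 of 14 in microglia.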

How the results depend on the processing

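No paired analysis was possible because each group holds 1 library. In granule neurons the signs of the 4 medians held under all 16 alternatives: 0.11 to 0.71 between genotypes without exercise, -0.34 to -0.08 with exercise in WT, -1.32 to -0.62 with exercise in the knock-in and -0.62 to -0.25 between genotypes with exercise. The cause of each move below was not tested.

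Granule medians between genotypes without exercise moved from 0.57 to 0.11 as UMIs per nucleus, 0.39 with at least 1200 UMIs, 0.49 under 1% mitochondrial UMIs, 0.65 with mitochondrial and the 50 highest genes out of the total, 0.66 after thinning, 0.70 with at least 1000 genes or with 4000 variable genes, and 0.71 with doublets kept or without clusters led by cytosolic mRNAs. Exercise in WT moved from -0.21 to -0.0852 with TMM, -0.0923 per nucleus, -0.077 with median-of-ratios factors and -0.34 with at least 1200 UMIs. Exercise in the knock-in moved from -1.19 to -0.62 per nucleus. The ratio between genotypes with exercise moved from -0.44 to -0.60 with TMM, -0.62 with median-of-ratios factors, -0.27 with 4000 variable genes or doublets kept, and -0.25 with at least 1000 genes or without clusters led by cytosolic mRNAs.

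The log2 ratio of oligodendrocytes to granule neurons was 0.79, 1.19, 1.28 and 0.49 in the 4 libraries and stayed above 0. In WT without exercise it was 0.91 with 4000 variable genes, 0.57 with at least 1200 UMIs, 0.94 with doublets kept, 0.68 at resolution 2.0, 0.75 after thinning and 0.66 under 1% mitochondrial UMIs. In WT with exercise it was 1.36 with 4000 variable genes, 0.90 with at least 1000 genes, 1.11 with at least 1200 UMIs, 1.38 with doublets kept, 0.63 at resolution 2.0 and 0.73 under 1% mitochondrial UMIs. In the knock-in without exercise it was 0.56 with at least 1000 genes, 1.15 with at least 1200 UMIs, 1.32 at resolution 2.0, 1.02 after thinning and 1.103 under 1% mitochondrial UMIs. In the knock-in with exercise it was 0.45 after thinning and 0.44 under 1% mitochondrial UMIs. The granule ratio of large to small subunit UMIs was 1.57, 1.57, 1.58 and 1.73 over the 77 subunits with no second copy, and 1.73 in WT with exercise after thinning.

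Medians were sorted by whether an interval of the median over the members excluded 0. Members of 1 pair of libraries are not replicates, so this sorting says nothing on the spread between mice. Among medians whose interval excluded 0, CA1 neurons reversed with exercise in WT (0.0287 with TMM, 0.0321 with median-of-ratios factors, 0.0638 per nucleus, 0.0411 after thinning). They also reversed between genotypes without exercise (-0.0599 per nucleus). Between genotypes with exercise they reversed too (0.0141 with at least 1200 UMIs, 0.00955 under 1% mitochondrial UMIs, 0.0121 without clusters led by cytosolic mRNAs, 0.295 after thinning). In oligodendrocytes exercise in WT reversed to -0.21 with at least 1000 genes, -0.36 at resolution 2.0 and -0.17 under 1% mitochondrial UMIs. Between genotypes with exercise, astrocytes reversed to 0.20 per nucleus and 0.0281 with doublets kept. Microglia reversed to 0.73 with 4000 variable genes, 0.22 per nucleus, 0.85 with at least 1000 genes, 1.23 with deep clusters kept and 0.39 with doublets kept. Medians with an interval that held 0 also changed sign: inhibitory neurons between genotypes with exercise (lowest -0.20), CA3 neurons in that comparison (lowest -0.098) and astrocytes with exercise in the knock-in (-1.49 to 1.01). Per nucleus, 18 of 28 medians moved and 4 reversed.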
